A study of Homo sapiens with 9 samples.

Results

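ALDH1A3, RDH10, RDH12, DHRS9, SDR16C5, DHRS3, CRABP2, STRA6 and CYP26B1 are genes of retinoid (vitamin A) metabolism. These 9 genes were taken by symbol from the 24672 genes of the deposited tables. They were picked with their levels in all 9 libraries already known, so their values below are a description and no p-values are given for them. Of the 9, 8 passed the filter on low counts and were among the 12806 genes tested, and STRA6 was not.

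The RNA came from EPC2, a line of human esophageal epithelial cells immortalised with telomerase. For 3 libraries SPINK7 was silenced and the cells were differentiated at an air-liquid interface (silenced ALI libraries). For another 3 the cells carried a non-silencing control through the same culture (control ALI libraries), and for the last 3 the control cells stayed an undifferentiated monolayer (monolayers). Per the labels, interface cultures were raised from 0.09 to 1.8 mM calcium at day 2. By the same labels they met air at day 7 and were collected at day 14. The deposited names of some ALI libraries differ from the labels in day. The medium of all groups contained 1 ng/mL EGF and 50 ug/mL bovine pituitary extract. SPINK7 is a protease inhibitor of squamous epithelium, and the study asks which transcripts differ when it is silenced and when the cells differentiate. One cell line and 1 silenced group were used, and the labels do not give the construct. Loss of SPINK7 and effects of the construct therefore cannot be told apart. Nothing states that the libraries of a group are separate cultures, so tests measure the spread between libraries, which may be technical.

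Cells make retinoic acid from retinol in 2 steps. Dehydrogenases of the short-chain family such as RDH10, DHRS9 and SDR16C5 turn retinol into retinaldehyde, a reversible step that reductases of the same family such as DHRS3 and RDH12 run backwards, and retinaldehyde dehydrogenases such as ALDH1A3 then form retinoic acid irreversibly. STRA6 brings retinol into cells, CRABP2 carries retinoic acid to its nuclear receptors, and CYP26B1 hydroxylates it for removal. In stratified squamous epithelia retinoic acid is known to restrain cornification, and lack of vitamin A is known to cause squamous metaplasia.

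Library totals lay between 7641960 and 14009746 counts. SPINK7 was at 20.9, 38.6 and 32.7 CPM in the silenced ALI libraries, 12.9% of the mean in the controls (229, 261 and 225 CPM), a log2 fold change of -2.95 (SE 0.30). CPM is the count scaled to the library size after TMM (trimmed mean of M-values) normalization. The ALI libraries numbered 2 stood apart in both arms. They lay at -25.5 (silenced) and -78.5 (control) on the second principal component, against 14.3 to 55.0 for the other 4 ALI libraries, and the proliferation gene MKI67 was at 0.893 and 0.757 CPM in them, against 39.65 to 106 CPM. All 6 squamous markers listed (TP63, KRT5, KRT14, KRT6A, CDH1 and SFN) were detected in every group. The leukocyte marker PTPRC and the melanocyte markers TYR and DCT had 0 counts in all 3 groups. Summed leukocyte markers lay at 67.1 to 95.3, 53.2 to 70.5 and 16.3 to 29.3 CPM in silenced ALI, control ALI and monolayer libraries, with 3, 4 and 2 of 6 detected, and summed fibroblast markers at 20.75 to 45.6, 12.2 to 49.2 and 50.1 to 186 CPM, with 5, 3 and 6 of 7 detected. Summed melanocyte markers lay at 2.06 to 4.05, 3.48 to 5.297 and 1.49 to 2.76 CPM, with 3 of 5 detected in each group. Summed endothelial markers lay at 1.405 to 2.34 CPM in silenced ALI (2 of 4 detected, PECAM1 and KDR at 0), at 3.03 to 9.62 CPM in control ALI (3 of 4, CDH5 at 0) and at 0.304 to 0.5665 CPM in monolayers (4 of 4). The part of these markers in the results was not tested.

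ALDH1A3, the retinaldehyde dehydrogenase, had the largest upward log2 fold change of the members in silenced against control ALI. RDH12 had a larger change in the lower direction (log2 fold change -2.52, SE 0.58). The level of ALDH1A3 was 2635, 2531 and 3043 CPM in the silenced ALI libraries. It was 959.5, 552 and 676 CPM in the control ALI libraries, and 378, 809 and 796 CPM in the monolayers. Every silenced library lay above every library of the other groups, while the control ALI and monolayer libraries overlapped. The means were 2736 ± 271, 729 ± 209 and 661 ± 245 CPM (SD, n = 3 each). The log2 fold change was 1.91 (SE 0.35) for silenced against control ALI, or 3.75-fold between the means, and 2.05 (SE 0.35) for silenced ALI against monolayer. For control ALI against monolayer it was 0.14 (SE 0.34), with a 95% interval of -0.68 to 0.97, and it turned to -0.10 without control ALI library 1 and to -0.14 without monolayer library 1. In bulk RNA a larger share of cells with the transcript and more transcript per cell cannot be told apart.

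ALDH1A3 was the 1 member past the threshold in silenced against control ALI (adjusted p under 0.05 in edgeR's quasi-likelihood test over all genes), where 0.929% of all tested genes were called, 0.226% higher and 0.703% lower. No member was past it in the lower direction. At an unadjusted edgeR p under 0.05 there were 4 of the 8 tested members in either direction, beside 9.16% of all tested genes. DESeq2 called 2 members and 3.25% of genes, and limma-voom called 1 and 1.16%. Since the members were picked on this contrast, nothing is read from these counts. Among the 29 genes higher over all genes, ALDH1A3 was 12th by log2 fold change and 1st by the difference between group means, 2007 CPM. The call held in 11 of 19 alternative fits. It was lost without silenced ALI library 1 or 3, control ALI library 1 or 3, or monolayer library 2 or 3, with monolayer libraries 2 and 3 summed, and in a fit of the 2 ALI groups alone, while the log2 fold change stayed between 1.74 and 2.16 in all 19.

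**Figure D1:**
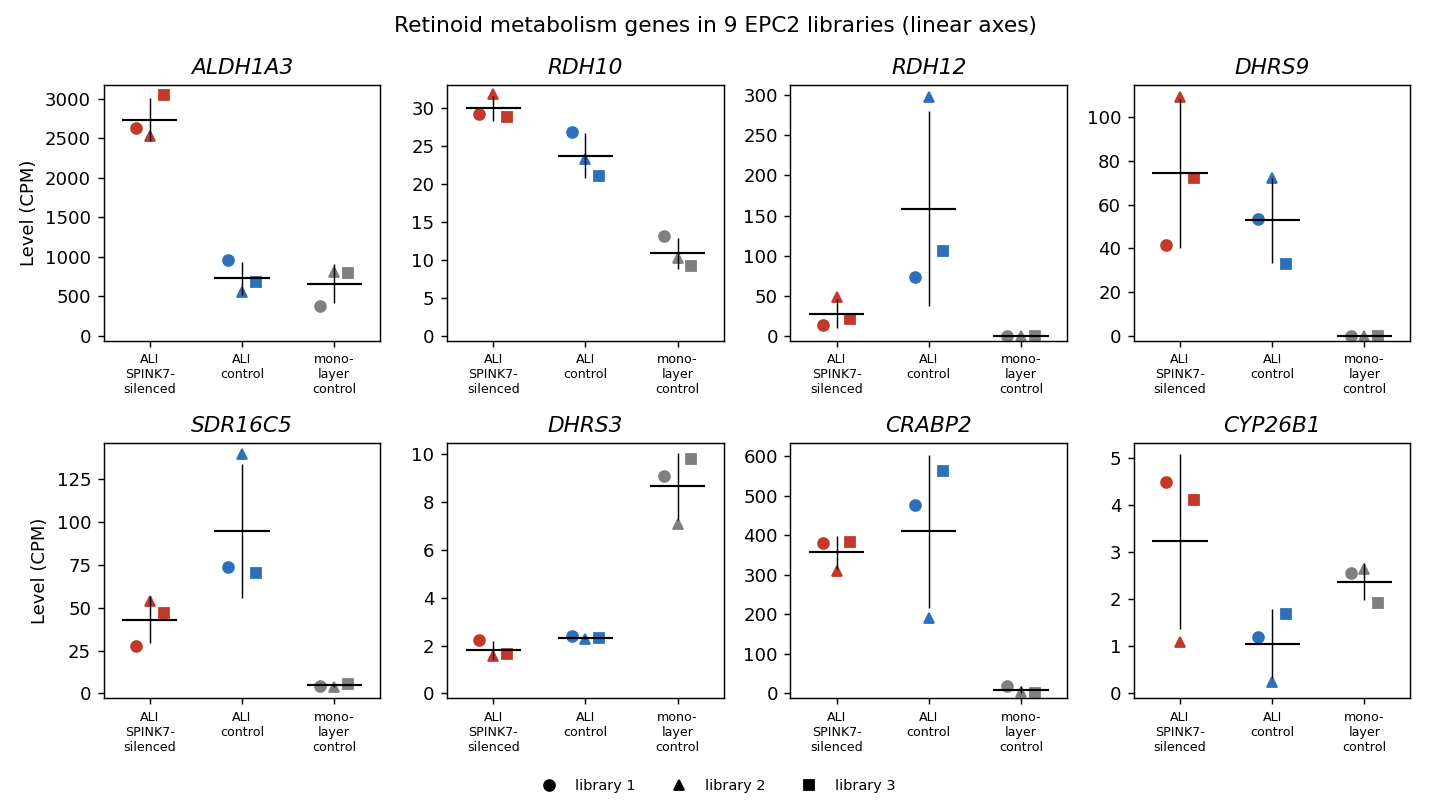
Level in CPM (linear axes, a separate scale for each gene) of the 8 tested retinoid genes in each of 9 EPC2 libraries, with the mean (horizontal bar) and SD (vertical bar) of 3 libraries per group; symbols give the library number. ALDH1A3 is at 2531 CPM or more in the 3 silenced ALI libraries and at 959.5 CPM or less in the other 6, while RDH12, DHRS9, SDR16C5 and CRABP2 are near the bottom of their axes in the monolayers.

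ALDH1A3 (chromosome 15, 101420009 to 101456830, plus strand, hg19) was counted on 1 transcript row, NM_000693, which no row of another gene overlapped. A promoter of ALDH1A3 is shown because ALDH1A3 was the member called in silenced cultures. It is 300 bases of RefSeq sequence (GRCh38.p14, chr15:100879581-100879880, plus strand), from 250 before the start of transcript NM_001293815 to 50 after it. This is another transcript than the counted one. A CCAAT box is in capitals at -71 from the start.
ALDH1A3: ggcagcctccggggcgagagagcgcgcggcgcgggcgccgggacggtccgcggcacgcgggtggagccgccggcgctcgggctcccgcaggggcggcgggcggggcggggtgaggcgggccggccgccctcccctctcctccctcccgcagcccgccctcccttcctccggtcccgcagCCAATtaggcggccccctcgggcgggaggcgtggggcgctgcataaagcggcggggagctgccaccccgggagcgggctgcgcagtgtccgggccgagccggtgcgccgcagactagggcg
The stretch is 81.7% G or C, against a median of 58.67% over 35116 human promoters of the same length. Promoters were available for 6 of the 9 members, 15 stretches in all. Motifs were looked for on both strands. The retinoid receptor half-site AGGTCA was in 13.8% of all promoters and in 3 of the 15, of DHRS3 and STRA6. The paired form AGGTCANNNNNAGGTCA was in 0.0057% and in 0 of the 15. CCAAT was in 34.6% of all promoters and in 5 of the 15 (ALDH1A3, CYP26B1, DHRS9 and STRA6), and the AP-1 motif TGANTCA was in 7.71% and in 2 of the 15 (DHRS3 and DHRS9). A match here describes letters in a window and is not a measured binding site.

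Among the aldehyde dehydrogenase genes ALDH1A3 held most of the family's RPKM in the silenced cultures. RPKM, as deposited, is a level per transcript length and library size and allows genes to be set side by side. ALDH1A3 was at 641, 636 and 751 RPKM in the silenced ALI libraries, at 227, 115 and 160.4 RPKM in the control ALI libraries and at 96.6, 208 and 206 RPKM in the monolayers. That was 77.0 to 84.15% of the summed RPKM of 19 aldehyde dehydrogenase genes in silenced ALI, 41.1 to 58.0% in control ALI and 35.7 to 52.3% in monolayers. Among all genes ALDH1A3 ranked 71st to 87th by RPKM in silenced ALI, 231st to 519th in control ALI and 227th to 447th in monolayers.

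The other genes of retinaldehyde oxidation were far lower. Of the summed RPKM of ALDH1A1, ALDH1A2 and ALDH1A3, ALDH1A3 made up at least 99.96% in silenced ALI, 98.57% in control ALI and the whole in monolayers. ALDH1A1 was at 0.187, 0.481 and 0.468 CPM in silenced ALI, at 2.28, 5.42 and 1.27 CPM in control ALI and at 0 counts in the monolayers. ALDH1A2 had 2 counts in silenced ALI, 2 in control ALI and 0 in monolayers. Silenced against control ALI gave a log2 fold change of -2.93 for ALDH1A1 (SE 0.69, edgeR adjusted p = 0.127), which is not past the threshold, on 13 and 72 counts.

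**Figure D2:**
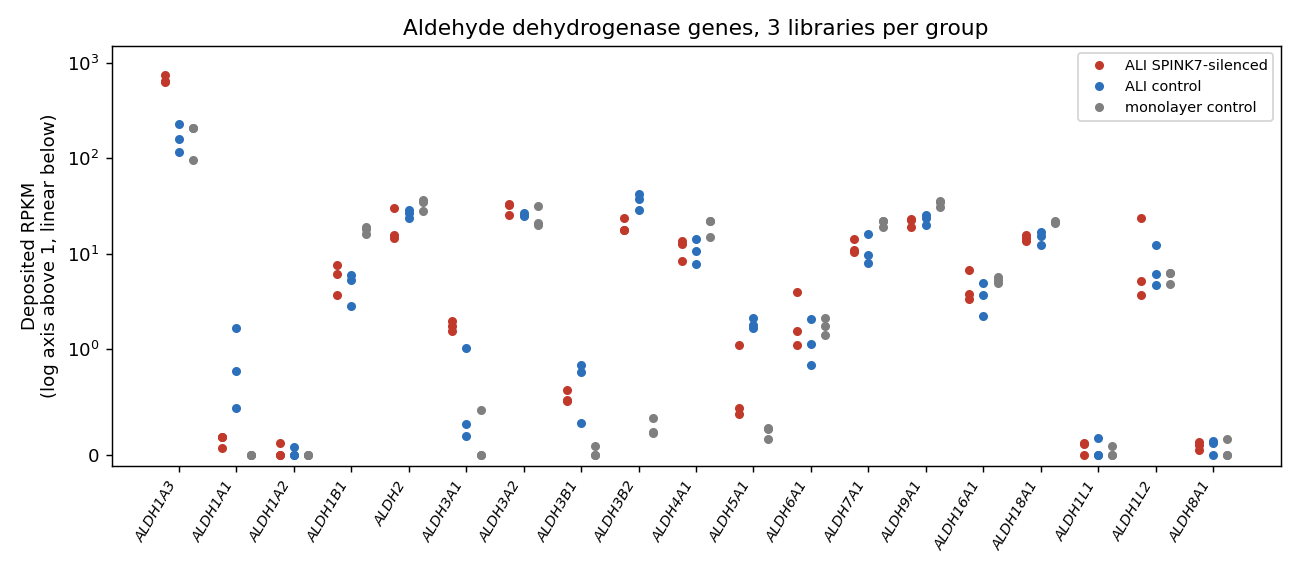
Deposited RPKM of 19 aldehyde dehydrogenase genes (vertical axis logarithmic above 1 and linear below it) in 3 silenced ALI, 3 control ALI and 3 monolayer libraries, 1 point per library. ALDH1A3 has the highest points of the family in each group, and its silenced ALI points, at 636 to 751 RPKM, lie above its other 6.

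RDH12, DHRS9 and SDR16C5 were much higher in control ALI cultures than in monolayers and RDH10 was moderately higher, and RDH12 and SDR16C5 had lower values in silenced ALI libraries than in control ALI libraries. RDH12 (chromosome 14, 68168603 to 68201168, plus strand), known for reducing retinaldehyde in photoreceptors and mutated in inherited retinal dystrophy, was at 13.6, 47.95 and 20.8 CPM in silenced ALI, at 72.9, 298 and 105 CPM in control ALI and at 0.142, 0.101 and 0.319 CPM in monolayers. The 3 groups did not overlap. The log2 fold change was -2.52 (SE 0.58) for silenced against control ALI, where the silenced mean was 17.3% of the control mean, and 9.68 (SE 0.91) for control ALI against monolayer, where the monolayers held 6 counts in all. The first of these was not past the threshold, and was -1.69 without control ALI library 2, which held the highest level. It was past the threshold in 4 of 19 alternatives, among them those without silenced ALI library 2 and without both ALI libraries numbered 2.

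SDR16C5 (chromosome 8, 57212570 to 57233241, minus strand), also called epidermal retinol dehydrogenase 2, had the same order of groups. It was at 27.6, 54.2 and 47.2 CPM in silenced ALI, at 73.7, 139.7 and 70.5 CPM in control ALI and at 4.32, 4.05 and 5.64 CPM in monolayers. The groups again did not overlap. The log2 fold change was -1.14 (SE 0.33) for silenced against control ALI, not past the threshold, and -0.74 without control ALI library 2, which held the highest level. For control ALI against monolayer it was 4.34 (SE 0.38).

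DHRS9 (chromosome 2, 169921299 to 169952677, plus strand), which oxidises retinol and 3-alpha-hydroxysteroids, was almost absent from monolayers. It was at 41.5, 109 and 72.0 CPM in silenced ALI and at 53.3, 72.0 and 33.0 CPM in control ALI, against 0.142, 0 and 0 CPM in monolayers. The ALI groups overlapped, with a log2 fold change of 0.49 (SE 0.41) for silenced against control. Against the 2 counts of the monolayers, the ratio of control ALI to monolayer was 861, with an exact 95% counting interval of 238 to 7116 that covers counting error only.

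Most DHRS9 counts were assigned to 2 of its 4 transcript rows. NM_001142271 held 35.3 to 64.2% in silenced ALI and 52.2 to 65.3% in control ALI, and NM_199204 held 27.4 to 39.35% and 25 to 33.1%. All 4 rows share their 3′ end, so this split is how reads were assigned and may not be promoter use. The promoters of both transcripts are shown because they are unlike that of ALDH1A3, at 39.3 and 36.7% G or C. The stretches are RefSeq sequence of GRCh38.p14, plus strand, chr2:169066827-169067126 for NM_199204, with TATAAA in capitals at -114 and -32, and chr2:169080857-169081156 for NM_001142271, with ATTGG in capitals at -179 and -46, the reverse complement of the CCAAT box.
NM_199204: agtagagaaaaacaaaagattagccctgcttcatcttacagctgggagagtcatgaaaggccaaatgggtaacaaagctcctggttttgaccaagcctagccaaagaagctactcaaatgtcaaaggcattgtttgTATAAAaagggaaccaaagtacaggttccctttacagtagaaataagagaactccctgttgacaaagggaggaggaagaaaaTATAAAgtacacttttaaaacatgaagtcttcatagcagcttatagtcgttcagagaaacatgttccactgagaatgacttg
NM_001142271: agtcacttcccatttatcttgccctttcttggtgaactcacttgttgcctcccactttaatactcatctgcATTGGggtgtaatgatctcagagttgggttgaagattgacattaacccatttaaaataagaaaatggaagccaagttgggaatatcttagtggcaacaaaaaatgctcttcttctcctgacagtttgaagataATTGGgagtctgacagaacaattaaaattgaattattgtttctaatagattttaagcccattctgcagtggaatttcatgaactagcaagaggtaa
TATAAA was in 11.5% of all promoters and in 5 of the 15 member promoters (CYP26B1, DHRS9 and STRA6).

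RDH10, the retinol dehydrogenase that mouse embryos need for retinoic acid synthesis, differed less between groups. RDH10 (chromosome 8, 74206837 to 74237520, plus strand) was at 29.25, 31.95 and 28.9 CPM in silenced ALI, at 26.9, 23.3 and 21.0 CPM in control ALI and at 13.2, 10.2 and 9.26 CPM in monolayers. Its groups did not overlap, yet the log2 fold change was only 0.34 (SE 0.21) for silenced against control ALI. For control ALI against monolayer it was 1.12 (SE 0.21).

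DHRS3 is the reductase that turns retinaldehyde back into retinol and is itself known to be induced by retinoic acid. It was the member with lower levels in both ALI groups than in monolayers. DHRS3 (chromosome 1, 12627939 to 12677820, minus strand) was at 2.24, 1.58 and 1.64 CPM in silenced ALI, at 2.41, 2.27 and 2.33 CPM in control ALI and at 9.065, 7.08 and 9.79 CPM in monolayers. Every monolayer library lay above every ALI library. The log2 fold change was -0.36 (SE 0.30) for silenced against control ALI, on 61 and 58 counts, and -1.88 (SE 0.29) for control ALI against monolayer.

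CRABP2, which carries retinoic acid to its receptors in the nucleus, was high in both ALI groups and low in monolayers. It was at 381, 309.7 and 383 CPM in silenced ALI, at 477, 190.4 and 562 CPM in control ALI and at 19.7, 2.83 and 2.13 CPM in monolayers. The ALI groups overlapped, with a log2 fold change of -0.20 (SE 0.68) that was -0.54 without control ALI library 2 and turned to 0.10 without control ALI library 3. Control ALI against monolayer gave 5.61 (SE 0.84), or 7.37 without monolayer library 1, which was the highest of its group. CRABP2 (chromosome 1, 156669400 to 156675608, minus strand) has 2 transcript rows with equal counts in 7 of the 9 libraries, so reads may have been split or counted on both rows, and its level is uncertain by up to 2 times. The rows differed in silenced ALI libraries 1 (763 and 3311 counts) and 3 (267 and 3005 counts). The uncertainty is thus not the same in silenced and control ALI. Counted by the larger row alone, CRABP2 was at 309, 155 and 352 CPM in silenced ALI, at 239, 95.2 and 281 CPM in control ALI and at 9.84, 1.42 and 1.06 CPM in monolayers. Silenced against control ALI then gave a log2 fold change of 0.41.

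STRA6 (chromosome 15, 74471808 to 74502046, minus strand), the membrane receptor through which cells take up retinol from its plasma carrier, had 1 count among all 9 libraries, in control ALI library 2. A count of 3 over the libraries of a group corresponds to 0.08875 CPM in silenced ALI, 0.121 CPM in control ALI and 0.0898 CPM in monolayers, and STRA6 lay under this in each group. It was not detectable at this depth.

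CYP26B1, a cytochrome that hydroxylates retinoic acid, was low throughout. CYP26B1 (chromosome 2, 72356367 to 72374963, minus strand) was at 4.485, 1.10 and 4.10 CPM in silenced ALI, at 1.21, 0.252 and 1.69 CPM in control ALI and at 2.55, 2.63 and 1.92 CPM in monolayers. Silenced ALI libraries 1 and 3 were the highest of the 9, and silenced library 2 overlapped with the controls. Every control ALI library lay below every monolayer library. The log2 fold change was 1.57 (SE 0.65) for silenced against control ALI, on 99 and 27 counts, and -1.15 (SE 0.65) for control ALI against monolayer. Neither was past the threshold.

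For control ALI against monolayer 5 members were past the threshold as higher (RDH10, RDH12, DHRS9, SDR16C5 and CRABP2) and 1 as lower (DHRS3), where 40.5% of all tested genes were called, 20.3% higher and 20.2% lower. These counts were the same in 20 alternative fits. The members were picked with this contrast known as well, so the counts describe them.

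Within the ALI groups the libraries numbered 2 were the highest of their arm for RDH12, SDR16C5 and DHRS9 and the lowest for ALDH1A3, CRABP2 and CYP26B1, in silenced and in control cultures alike. These are the libraries in which MKI67 was under 1.0 CPM, and the part of that difference in the members' levels was not tested. With both left out, 2 members were past the threshold as higher in silenced against control ALI (ALDH1A3 and CYP26B1) and 2 as lower (RDH12 and SDR16C5). Over all genes 280 were then higher and 428 lower, against 29 and 90 with all libraries kept. The members were picked with this contrast known, so nothing is read from their counts.

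**Figure D3:**
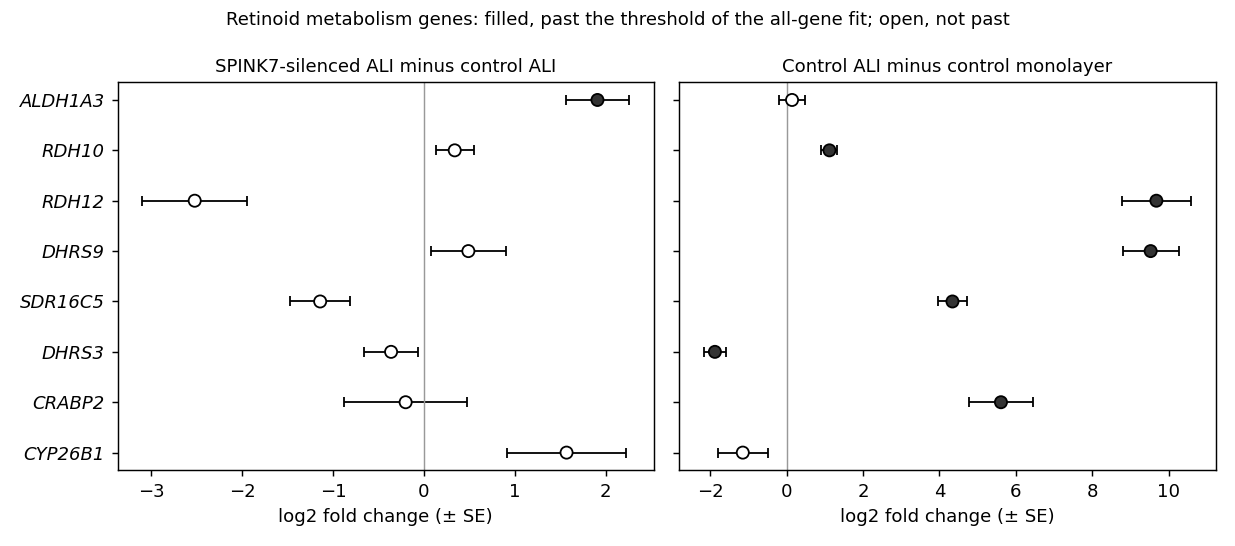
Log2 fold change with its SE for the 8 tested members, silenced against control ALI (left) and control ALI against monolayer (right); filled points are past the threshold of the fit over all genes. On the left ALDH1A3 alone is filled, at 1.91, and on the right 5 members are filled above 0 and DHRS3 below it; the DHRS9 point on the right rests on 2 monolayer counts.

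Per length, ALDH1A3 was the most abundant member in silenced ALI at 676 ± 65.3 RPKM (SD, n = 3), above CRABP2 at 295 ± 31.4 RPKM. DHRS9 (39.7 ± 19.4), RDH12 (12.7 ± 8.56) and SDR16C5 (12.3 ± 4.095 RPKM) followed and overlapped as neighbours, then RDH10 (6.55 ± 0.457 RPKM), with DHRS3 and CYP26B1 under 1.1 RPKM. In control ALI the first 2 changed places, with CRABP2 at 318 ± 164 RPKM and ALDH1A3 at 167.5 ± 56.3 RPKM, and their libraries overlapped. RDH12 (64.75 ± 44.6), DHRS9 (25.9 ± 8.20) and SDR16C5 (24.3 ± 8.02 RPKM) came next there, each overlapping its neighbour. In monolayers ALDH1A3 was at 170.2 ± 63.8 RPKM and no other member reached 17.0 RPKM in any library. The places of CRABP2 carry the uncertainty of its doubled rows.

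The rest of the pathway was taken from 5 lists of 74 genes in the tables, 43 of which were tested. In silenced against control ALI 2 of the 43 fell and 0 rose, where 0.703% of all tested genes were called lower and 0.226% higher. The median log2 fold change was 0.09 beside 0.01 over all tested genes. At an unadjusted p under 0.05 edgeR gave 10 of the 43, beside 9.16% of all tested genes. DESeq2 called 5 after adjustment, beside 3.25% of genes, and limma-voom 3, beside 1.16%. CD36, a scavenger receptor that takes up fatty acids and carotenoids, was at 1.59, 2.54 and 1.76 CPM in silenced ALI, against 23.2, 94.2 and 18.7 CPM in control ALI (log2 fold change -4.50, SE 0.64, edgeR adjusted p = 0.0124). KRT4, an esophageal keratin in the list of genes induced by retinoic acid, was at 139, 107 and 161 CPM in silenced ALI and 555, 379 and 676 CPM in control ALI (log2 fold change -1.98, SE 0.30, edgeR adjusted p = 0.0138). CD36 lost its call without silenced ALI library 1 or 3 (adjusted p = 0.0779 and 0.0784), and KRT4 without either of these or control ALI library 1 or 3 (0.0504 to 0.0832). The 2 calls were thus 0 without silenced ALI library 1 or 3 and 1 without control ALI library 1 or 3.

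In control ALI against monolayer 14 of the 43 rose and 9 fell, where 20.3% of all tested genes were called higher and 20.2% lower. The median log2 fold change was 0.24 beside 0.03 over all tested genes. Among 7 tested genes of uptake, carriage and storage 3 rose and 0 fell. FABP5, a fatty acid carrier that also binds retinoic acid, was at 470.4 ± 68.7 CPM in control ALI and 11.1 ± 3.25 CPM in monolayers (SD, n = 3 each; log2 fold change 5.40, SE 0.33, edgeR adjusted p = 2.79e-06). LRAT, which esterifies retinol for storage, was at 13.1 ± 6.48 CPM in control ALI and 0.290 ± 0.0716 CPM in monolayers (5.41, SE 0.54, adjusted p = 5.41e-05 in edgeR). CD36 was the third, 737 times as high against 2 monolayer counts, with a counting interval of 204 to 6095. FABP5 in silenced ALI was at 181 ± 52.3 CPM, a log2 fold change of -1.38 against control ALI (SE 0.28) that missed the threshold (edgeR adjusted p = 0.0532, over alternatives 0.000148 to 0.239). The retinoic acid carrier CRABP1 had 0 counts in silenced ALI, against 1 in control ALI, and was not tested. Reads of FABP5 may be shared with its processed pseudogenes.

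Of 12 tested genes of oxidation and reduction 5 rose in control ALI against monolayer, beside 20.3% of all tested genes. The 1 that fell, beside 20.2%, was the aldose reductase AKR1B1 (named after its values were seen). In silenced against control ALI 0 of 12 passed in edgeR, 1 in DESeq2 and 0 in limma-voom, beside 0.929, 3.25 and 1.16% of genes. At an unadjusted edgeR p under 0.05 there was 1 of the 12, beside 9.16%. ADH7, an alcohol dehydrogenase of upper digestive epithelium with activity on retinol, was at 37.6, 88.35 and 46.4 CPM in silenced ALI, at 68.45, 237 and 84.6 CPM in control ALI and at 0 counts in the monolayers. Against a floor of 3 counts over the monolayers, it was at least 1428-fold higher in control ALI, and ALDH1A1 at least 32.3-fold higher (edgeR adjusted p = 7.08e-05 and 0.00126). AKR1B10, a retinaldehyde reductase, rose by 3.62 on the log2 scale (SE 0.65, edgeR adjusted p = 0.00189), and RDH13 by 2.27 (SE 0.45, edgeR adjusted p = 0.00326). RDH11, another retinaldehyde reductase, was at 178 ± 26.5, 209.7 ± 57.7 and 130.3 ± 14.0 CPM in silenced ALI, control ALI and monolayers. Its rise of 0.69 in control ALI (edgeR adjusted p = 0.0393) was lost in 9 of 19 alternatives, among them those without silenced ALI library 3, control ALI library 2 or any 1 monolayer library. The median log2 fold change of the list was 0.60, also with ADH7 and ALDH1A1 at their lower bounds. RDH16, at 7, 15 and 31 counts in silenced ALI, control ALI and monolayers, was not tested.

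Of 4 other breakdown genes, 1 passed the count filter. CYP26A1, the close relative of CYP26B1, had 0 counts in silenced ALI, 2 in control ALI and 0 in monolayers. CYP2S1, a cytochrome that can oxidise retinoic acid, was at 15.3 ± 5.41 CPM in silenced ALI, 12.7 ± 5.02 CPM in control ALI and 64.0 ± 23.9 CPM in monolayers, and fell by 2.33 on the log2 scale in control ALI against monolayer (SE 0.42, adjusted p = 0.00182 in edgeR).

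Of 11 tested receptors and coregulators 2 rose and 3 fell in control ALI against monolayer, beside 20.3 and 20.2% of all tested genes. In silenced against control ALI 0 passed in edgeR, DESeq2 or limma-voom, beside 0.929, 3.25 and 1.16% of genes. At an unadjusted edgeR p under 0.05 there were 2 of the 11, beside 9.16%. The retinoic acid receptor RARG was at 86.8 ± 13.7, 69.5 ± 16.4 and 34.1 ± 6.80 CPM in silenced ALI, control ALI and monolayers, and its rise in control ALI was 1.03 on the log2 scale (SE 0.24, edgeR adjusted p = 0.00824). RARA went the other way, with 7.45 ± 1.57, 5.70 ± 2.43 and 26.3 ± 3.46 CPM in the same order, a log2 fold change of -2.20 for control ALI against monolayer (SE 0.34, edgeR adjusted p = 0.000754). RARB had 0, 2 and 6 counts in the 3 groups. The partner receptor RXRA gave -0.46 (SE 0.28, 95% interval -1.16 to 0.24). The corepressor NCOR1 gave -0.57 (edgeR adjusted p = 0.0396, over alternatives 0.0175 to 0.162), and this call was lost in 12 of 19 alternatives, among them those without each single library other than control ALI library 3.

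Genes known to be induced by retinoic acid in other cells did not share 1 direction. Of 12 tested, 4 rose and 4 fell in control ALI against monolayer, where 20.3% of all tested genes were called higher and 20.2% lower. The median log2 fold change was -0.53 beside 0.03 over all tested genes. The keratins KRT4 and KRT13 rose by 9.29 and 7.10 on the log2 scale (edgeR adjusted p = 8.11e-07 and 2.81e-05), and the orphan receptor GPRC5A, at 179.8 ± 21.4, 120.3 ± 45.8 and 5.55 ± 1.26 CPM in silenced ALI, control ALI and monolayers, rose by 4.43 (adjusted p = 1.21e-05 in edgeR). Both keratins are also genes of esophageal differentiation. The transglutaminase TGM2 fell by 4.39 on the log2 scale in control ALI (SE 0.83, edgeR adjusted p = 0.00246). TGM2 was at 35.3, 11.5 and 24.2 CPM in silenced ALI, at 4.96, 0.378 and 8.565 CPM in control ALI and at 39.45, 131 and 126 CPM in monolayers. Silenced and control ALI did not overlap, but the log2 fold change of 2.33 (SE 0.78, edgeR adjusted p = 0.283) was not past the threshold, where 0.929% of all tested genes were called.

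**Figure D4:**
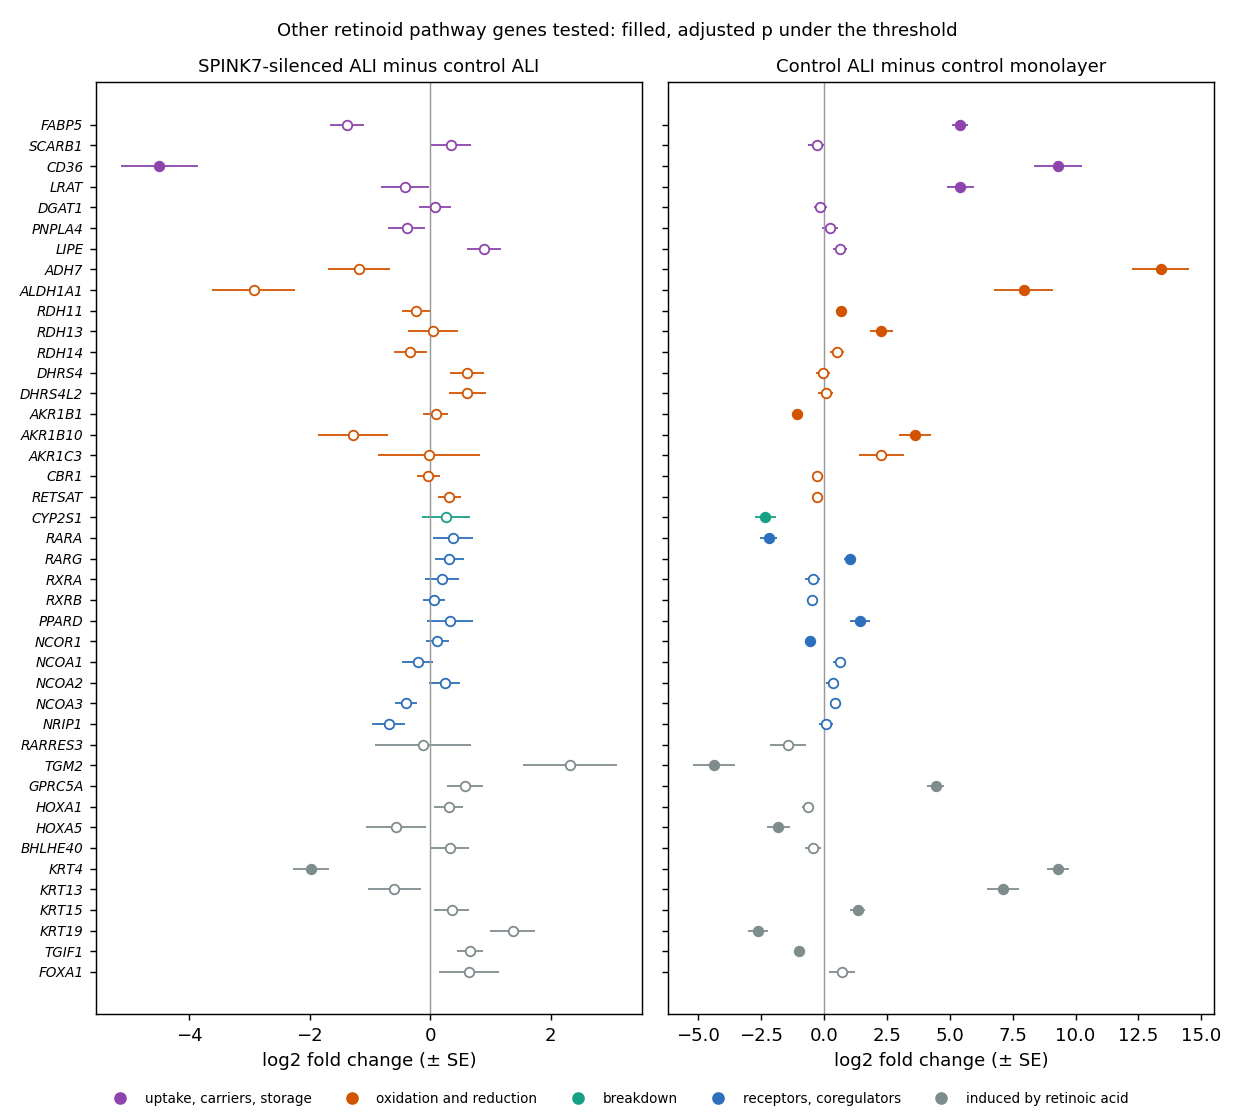
Log2 fold change with its SE for other tested genes of the retinoid pathway, coloured by list, for silenced against control ALI (left) and control ALI against monolayer (right); filled points have an edgeR adjusted p under the threshold of 0.05. CD36 and KRT4 are the filled points on the left; on the right genes are filled on both sides of 0, and the ADH7 and ALDH1A1 points there are fitted against monolayers with 0 counts.

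The enzyme families of the members were examined through 66 paralogues, 54 of them tested, 18 aldehyde dehydrogenases and 48 short-chain dehydrogenases in the tables. These lists share ALDH1A1, RDH11, RDH13 and some other genes with the pathway lists. In silenced against control ALI 1 of the 54 fell and 0 rose in edgeR, beside 0.703 and 0.226% of all tested genes. At an unadjusted edgeR p under 0.05 there were 9 of the 54, beside 9.16%. DESeq2 called 5, beside 3.25% of genes, and limma-voom 2, beside 1.16%. The median log2 fold change was -0.04, beside 0.01 over all tested genes. The gene that fell was SDR9C7, which acts on linoleate esters of the epidermal lipid barrier, at 4.02, 8.86 and 8.55 CPM in silenced ALI, against 46.35, 73.7 and 53.7 CPM in control ALI (log2 fold change -3.02, SE 0.35, edgeR adjusted p = 0.00456). The count of 1 was 3 without silenced ALI library 2 or control ALI library 2. ALDH3B2, a lipid-associated aldehyde dehydrogenase, was at 60.4 ± 9.56 CPM in silenced ALI and 119.5 ± 15.0 CPM in control ALI, a log2 fold change of -0.98 (SE 0.21) that missed the threshold (edgeR adjusted p = 0.0632, over alternatives 0.000957 to 0.274).

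In control ALI against monolayer 17 of the 54 paralogues rose and 6 fell, beside 20.3 and 20.2% of all tested genes. The rises were 11 without monolayer library 2. ALDH3B2 rose by 7.26 on the log2 scale (SE 0.29, edgeR adjusted p = 5.95e-07), and ALDH5A1, the succinic semialdehyde dehydrogenase, by 3.32 (SE 0.45, edgeR adjusted p = 0.000374). HPGD, which oxidises prostaglandins, was at 35.5 ± 30.3, 108 ± 56.6 and 0.211 ± 0.283 CPM in silenced ALI, control ALI and monolayers, a log2 fold change of 9.11 for control ALI against monolayer (SE 1.04, adjusted p = 0.000124 in edgeR). SDR9C7 was 966 times as high in control ALI as in monolayers with 2 counts, with a counting interval of 267 to 7987, and ALDH3B1 was 34.9 times as high, also against 2 counts, with an interval of 9.20 to 296. HSD11B2, which inactivates cortisol, rose by 4.4 (SE 0.83, edgeR adjusted p = 0.00237). DHRS2 fell by 5.73 (SE 0.97, edgeR adjusted p = 0.00135), to 4 counts in control ALI, against 280 in monolayers. All 4 of these counts were in control ALI library 3. Without that library the fit gave a fall of 9.53, but control ALI then held 0 counts of DHRS2, so the size of this fall was not measured.

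CAMK2N1 (Pearson r = 0.937), SNRK (0.936), PHF11 (0.932) and FAM117A (0.928) were among the 5 genes, of 12806 tested, whose log2 CPM followed ALDH1A3 most closely over the 9 libraries. The values are a description. The 9 points fall into 3 groups, and the parts of each value between and within groups were not separated. CAMK2N1 averaged 321 CPM in silenced ALI, 160.5 CPM in control ALI and 126 CPM in monolayers. The log2 fold changes of these 4 genes for silenced against control ALI lay between 0.56 (SNRK) and 1.0 (CAMK2N1), under the 1.91 of ALDH1A3.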

How the data were processed

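Polyadenylated, stranded RNA libraries of EPC2 cells were sequenced per the labels, and the submitters' processing notes name hg19, STAR 2.4.2a, Bowtie and MACS2 without roles. Which program counted reads, on which annotation and with what strand setting is not given in the sources used here. The authors deposited, for each library, 29800 transcript rows with whole-number read counts, not normalized, and RPKM values per row. Groups and library numbers follow the labels, from which the deposited names differ in number and day for some ALI libraries. Counts, and RPKM for levels per length, were summed per gene symbol and chromosome (24672 genes); 511 rows naming several genes held 0.411 to 0.554% of a library's counts. Library totals of 7641960 to 14009746 counts limit precision for genes with few counts.

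Tests used edgeR 4.0.16 in R 4.3.3: TMM, filterByExpr (12806 genes), a robust quasi-likelihood fit of the 9 libraries (6 residual degrees of freedom), F-tests and Benjamini-Hochberg adjustment with a threshold of 0.05. SE was derived from the F statistic, and intervals use it with 6 degrees of freedom. The steps were tested on simulated data. The members and lists were chosen with earlier results of these data known. Genes named besides the members are 15 chosen pathway genes, up to 4 per list and contrast past the threshold with the largest absolute log2 fold change and no overlap of groups, and the 5 most like ALDH1A3. A few genes taken by the rule are left out of text and plots, and stay in the counts. Alternatives were DESeq2 1.42.0 and its size factors, limma 3.58.1 (voom, or a trend fit on log2(RPKM + 0.1)), other count filters, the 2 groups alone, a replicate block and leaving out libraries. Promoters are RefSeq sequences of GRCh38.p14; deposited coordinates are hg19, and neither was converted.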

Additional observations from a re-analysis of the deposited data

How the results depend on the processing

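Over all genes, silenced against control ALI gave 29 higher and 90 lower genes. The higher count was 140 with DESeq2, 45 with no count filter, 5 with the 2 groups alone, 280 without both ALI libraries numbered 2, 46 in limma-trend on RPKM, 9 with monolayer libraries 2 and 3 summed, and 3 to 92 when 1 library was left out. The lower count was 275 with DESeq2, 54 with the 2 groups alone, 428 without both ALI libraries numbered 2 and 25 to 147 when 1 library was left out. Members called higher (1) became 0 with the 2 groups alone or with monolayer libraries 2 and 3 summed, 2 without both ALI libraries numbered 2, and 0 to 1 when 1 library was left out. Members called lower (0) became 1 with DESeq2, 2 without both ALI libraries numbered 2, and 0 to 1 when 1 library was left out. Other pathway genes called higher (0) and lower (2) became 1 and 4 with DESeq2 and 1 and 4 without both ALI libraries numbered 2, and the lower count was 0 to 2 when 1 library was left out. Paralogues called higher (0) became 1 without both ALI libraries numbered 2 and 0 to 1 when 1 library was left out, and those called lower (1) became 5 with DESeq2, 6 without both ALI libraries numbered 2, 2 with limma-voom and 1 to 3 when 1 library was left out. In control ALI against monolayer the paralogues that rose (17) were 11 to 16 when 1 library was left out, and those that fell (6) were 12 in limma-trend. The cause of these shifts was not tested. Signs turned where values lay near 0. In silenced against control ALI, leaving out 1 library gave -0.54 to 0.10 for CRABP2 (0.07 in limma-trend), -0.05 to 0.38 for RXRA, -0.86 to 0.06 for LRAT, -0.36 to 0.02 for RDH11, -0.35 to 0.47 for RDH13, -0.07 to 0.46 for CYP2S1, -0.02 to 0.21 for NCOR1 and -0.87 to 4.05 for DHRS2, and RDH13 was -0.25 without both ALI libraries numbered 2. In control ALI against monolayer, leaving out 1 library gave -0.08 to 0.05 for PHF11 and -0.15 to 0.26 for FAM117A, PHF11 was 0.01 with DESeq2 or its size factors, with the 2 groups alone and with monolayer libraries 2 and 3 summed, and FAM117A was -0.13 in limma-trend. Whether the library numbers of the labels pair the samples could not be settled. Correlations cannot decide it with 3 libraries per group and the ALI libraries numbered 2 standing apart in both arms. The deviations of same-numbered silenced and control ALI libraries correlated at 0.495, 0.577 and -0.006, and silenced library 1 correlated best with control library 3 (0.637). With the replicate number as a block, 51 genes were higher, and 1 member (RDH12) was lower in silenced against control ALI. Summing monolayer libraries 2 and 3 and counting CRABP2 by its larger row were chosen after seeing the data.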
